A study of Homo sapiens with 6 samples.

Results

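Keratins are the intermediate filament proteins of epithelial cells. A filament is built from heteropolymers that pair a type I keratin with a type II keratin, and the pair that a cell makes is commonly read as a sign of its epithelial kind. KRT8 and KRT18 form the pair of simple epithelia such as the lining of the lung, KRT7 and KRT19 are further simple epithelial keratins, KRT5 and KRT14 mark basal cells, and KRT6A, KRT16 and KRT17 are known to be induced by injury and stress. The hair and nail keratins normally belong to the hard keratin of those structures.

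The type I and type II keratin genes were examined by RNA-seq in A549, a long-established line of human lung adenocarcinoma cells. Members were taken as every row of the count table whose symbol is KRT followed by a number and at most a letter from A to C, so that keratin-associated proteins, antisense rows and pseudogenes were left out. This gave 55 genes of the 57781 rows, with 29 of type I and 26 of type II. There were 3 libraries of cells with the vector, whose genotype is given as WT, and 3 libraries of cells with short hairpin RNA against METTL3 (shMETTL3), whose genotype is given as METTL3 knockdown. METTL3 is the catalytic subunit of the complex that writes m6A on mRNA. Both groups are the same line in the same medium, the number of hairpins used is not given in the sources used here, and the labels do not say that the replicates were separate cultures, although the methods state for experiments in general that they were repeated independently. If they were not, p-values measure only the spread between these libraries, which may be technical.

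The libraries held between 14931426 and 19108928 counts, at which 3 counts correspond to 0.150 to 0.189 CPM, the count scaled to a common library size. CPM values were scaled by the TMM method of edgeR. METTL3 itself had 887, 846 and 808 counts in vector and 364, 399 and 307 in shMETTL3, a log2 fold change of -1.36 (SE 0.0673, adjusted p = 4.57e-16, edgeR quasi-likelihood test). Of markers for the label, the general epithelial gene EPCAM stood at 109 ± 5.32 CPM (SD, n = 3) in vector and 16.4 ± 0.867 CPM (SD, n = 3) in shMETTL3, while the lung surfactant genes SFTPA1, SFTPA2, SFTPB and SFTPC had at most 3 counts in any vector library. SFTPD, also a surfactant gene, had 56, 60 and 78 counts in vector and 6, 11 and 5 in shMETTL3. ABCA3, another alveolar marker, had 1479, 1318 and 1571 counts in vector. Of all genes tested, 66.6% were called at an adjusted p under 0.05. Under TMM 50.6% of these calls were higher in shMETTL3. With scaling by library size alone 65.8% were, and the median log2 fold change over all genes then stood at 0.18 instead of 0.0022.

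The keratins of A549 cells shifted in level and in make-up. Of the 55 genes, 20 had no count in any library, which allows a level of up to 0.189 CPM in one library, 20 had counts but too few for the test, and 15 were tested. Of these 15, 13 were called, 9 lower and 4 higher in shMETTL3, against 66.6% of all tested genes called in either direction, 32.9% called lower and 33.7% called higher. Each of the 9 lower keratins fell by at least 1 on the log2 scale, where 7.42% of all tested genes did. KRT8 fell by 0.91 with library size alone, under which the other 8 still fell by at least 1. Under TMM 4 of the 9, KRT17, KRT5, KRT13 and KRT6A, fell by at least 3, where 0.747% did. None of the 4 higher keratins rose by 1 on the log2 scale, which 10.2% of all tested genes did. The 3 shMETTL3 libraries did not overlap with the 3 vector libraries for 13 of the 15, against 69.4% of all tested genes. KRT5 and KRT13 passed the filter on low counts only through the vector libraries, so that their presence among the tested genes is not independent of their fall.

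**Figure D1:**
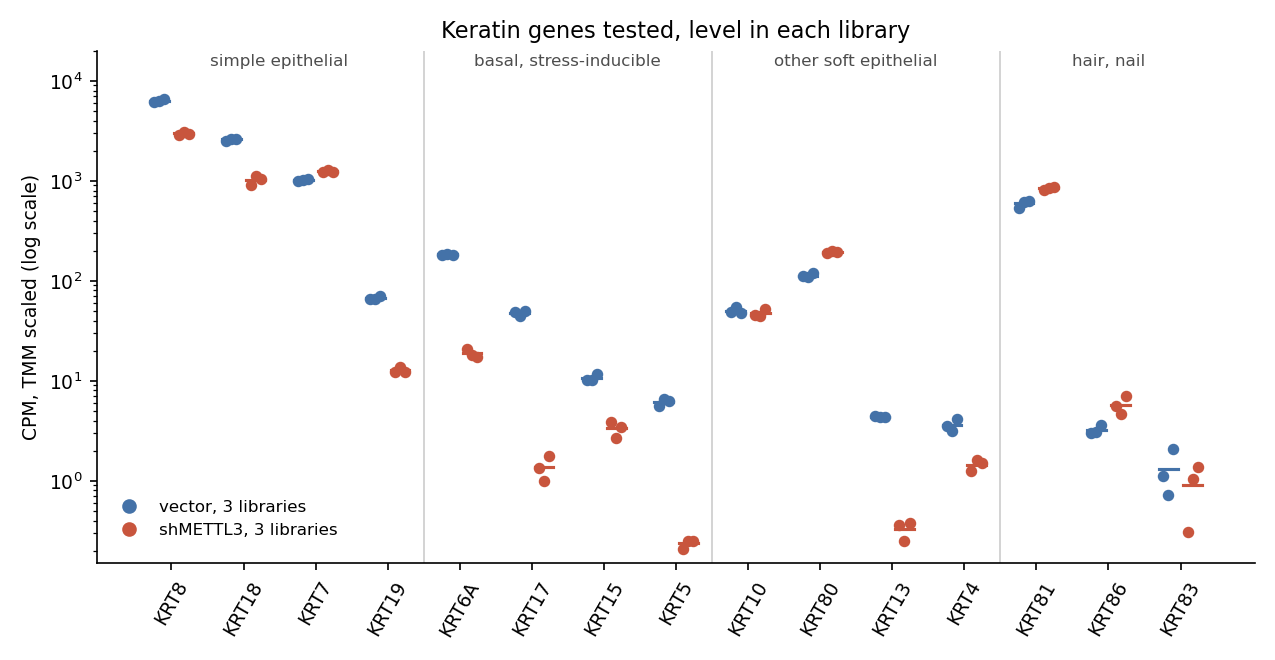
Level of the 15 tested keratins in each library, in TMM-scaled CPM on a log axis, with points for libraries and a short line for the mean of the 3 libraries of a group. The basal and stress-inducible keratins all lie lower in shMETTL3, with KRT17 near 48 CPM in vector and near 1.4 CPM in shMETTL3, while KRT7, KRT80, KRT81 and KRT86 lie higher and the groups of KRT10 and KRT83 overlap.

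Among the simple epithelial keratins, KRT8, the type II partner of KRT18, had the highest count of the keratins in every library. It had 110134, 104287 and 107805 counts in vector and 55700, 61592 and 47135 in shMETTL3. The groups did not overlap, and the mean went from 6329 ± 248 CPM to 2975 ± 93.9 CPM (SD, n = 3 each), a log2 fold change of -1.09 (SE 0.0504, adjusted p = 1.07e-16, edgeR). KRT18 had 44989, 44037 and 42986 counts in vector and 17480, 22203 and 16608 in shMETTL3. The groups were again apart, with a fall to 39.3% of the vector level and a log2 fold change of -1.35 (SE 0.0595, adjusted p = 4.06e-17). In bulk libraries such as these, fewer cells with a keratin and less of its RNA per cell cannot be told apart.

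The balance between the partners KRT8 and KRT18 was examined within each library. The count ratio of KRT8 to KRT18 was 2.45, 2.37 and 2.51 in vector and 3.19, 2.77 and 2.84 in shMETTL3. No vector library reached the lowest shMETTL3 library, and the mean log2 ratio differed by 0.26, with SDs of 0.0415 in vector and 0.107 in shMETTL3 (two-sided exact permutation test, p = 0.1, which no comparison of 3 with 3 can go below). A ratio within a library does not depend on how the libraries are scaled.

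KRT19, a type I keratin whose protein lacks most of the tail domain, had 1181, 1108 and 1162 counts in vector and 237, 277 and 193 in shMETTL3. This was a fall to 18.8% of the vector level, beside 47.0% for KRT8 (log2 fold change -2.41, SE 0.0731, adjusted p = 9.9e-21). KRT7, the simple epithelial keratin of glandular and lung cells, went the other way. It had 17768, 16880 and 17012 counts in vector and 23665, 25640 and 19337 in shMETTL3, and rose from 1014 ± 26.6 CPM to 1241 ± 33.2 CPM (log2 fold change 0.29, SE 0.0487, adjusted p = 7.84e-06). KRT20, the keratin of intestinal and urothelial cells, had 3, 2 and 1 counts in vector and 14, 9 and 2 in shMETTL3, too few for the test.

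All 4 tested basal and stress-inducible keratins were lower, and KRT17 and KRT5 fell further on the log2 scale than any other tested keratin. KRT17 had 878, 739 and 815 counts in vector against 26, 20 and 28 in shMETTL3. It stood at 47.7 ± 3.05 CPM and 1.37 ± 0.384 CPM (SD, n = 3 each), or 2.87% of the vector level, with a log2 fold change of -5.15 (SE 0.124, adjusted p = 6.61e-23). KRT5, the type II keratin of basal cells, had 100, 109 and 103 counts in vector and 4, 5 and 4 in shMETTL3. That is 3.85% of the vector level and only just above the 3-count floor in the shMETTL3 libraries (log2 fold change -4.66, SE 0.269, adjusted p = 1.26e-14).

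KRT6A, a type II keratin of injured and rapidly renewing epithelium, was the most abundant of this group. It had 3271, 3129 and 2950 counts in vector and 399, 366 and 275 in shMETTL3, a fall from 183 ± 3.40 CPM to 18.7 ± 1.72 CPM (log2 fold change -3.29, SE 0.0642, adjusted p = 1.18e-24). KRT15, a type I keratin of basal cells, had 183, 170 and 189 counts in vector and 75, 54 and 55 in shMETTL3, or 31.4% of the vector level (log2 fold change -1.67, SE 0.144, adjusted p = 6.18e-11). The usual type I partner of KRT5, KRT14, was close to absent, with 2 counts in vector replicate 2 and none elsewhere. KRT16, which commonly pairs with KRT6A, had between 1 and 6 counts in every library. KRT6B and KRT6C had 1 and 2 counts in all libraries together.

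Among the other soft epithelial keratins, KRT80, a type II keratin found widely in epithelia, was higher. It had 1995, 1806 and 1933 counts in vector and 3624, 3982 and 3099 in shMETTL3, a rise from 113 ± 5.34 CPM to 194 ± 5.59 CPM (log2 fold change 0.78, SE 0.0524, adjusted p = 3.5e-13). KRT13 and KRT4, the pair of the mucosal lining of mouth and oesophagus, were both lower. KRT13 had 80, 72 and 71 counts in vector and 7, 5 and 6 in shMETTL3 (log2 fold change -3.72, SE 0.274, adjusted p = 2.37e-12). KRT4 had 64, 52 and 67 counts in vector and 24, 32 and 24 in shMETTL3 (log2 fold change -1.31, SE 0.214, adjusted p = 5.38e-06). The groups did not overlap for either gene.

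KRT10, a type I keratin of differentiating epidermis, gave no call. Its counts were 875, 913 and 781 in vector and 883, 901 and 837 in shMETTL3, or 50.4 ± 3.69 CPM and 47.8 ± 4.28 CPM, with overlapping groups (log2 fold change -0.08, SE 0.0688, adjusted p = 0.306). With scaling by library size alone its log2 fold change was 0.093, the only change of sign among the tested keratins under the scalings tried. KRT12, a keratin of the cornea, had 8, 8 and 16 counts in vector and 3, 7 and 4 in shMETTL3 and was not tested.

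Of the hair and nail keratins, 3 were expressed enough to be tested, all of type II. KRT81 was abundant for a hair keratin, with 9686, 10287 and 10273 counts in vector and 15722, 17092 and 13838 in shMETTL3. It rose from 595 ± 48.5 CPM to 846 ± 29.2 CPM without overlap (log2 fold change 0.51, SE 0.0555, adjusted p = 6.76e-09). KRT86 had 54, 51 and 59 counts in vector and 107, 93 and 111 in shMETTL3 (log2 fold change 0.81, SE 0.172, adjusted p = 0.000157). KRT83 had 20, 12 and 34 counts in vector and 6, 21 and 22 in shMETTL3, with overlapping groups and no call (log2 fold change -0.54, SE 0.403, adjusted p = 0.242). KRT34, a type I hair keratin, had 0, 2 and 2 counts in vector and 7, 8 and 9 in shMETTL3, below the filter on low counts. Of the 17 hair and nail keratins 9 had no count at all, and of the 9 keratins of the hair follicle sheath 7 had none and the others 1 count each. Over all 20 keratins with counts that were not tested, the highest total of the 6 libraries was 46 counts, that of KRT12, and KRT222, a divergent member, had 0 counts in each vector library and 2, 4 and 3 in shMETTL3.

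Some of these counts depend on how reads from near-identical genes were treated, which the sources used here do not state. Of all stretches of 50 bases in the canonical GRCh37 transcript, 44.57% in KRT81 and 44.77% in KRT86 also occur in a transcript of another gene, most often the other member of this pair. For KRT6A the share was 39.18%, most often with KRT6C and KRT6B. For KRT18 it was 54.25% and for KRT8 39.19%, with many processed pseudogenes of each among the matches, and exons of KRT8 and KRT18 overlap on opposite strands over 525 bases. The 50 KRT8 pseudogene rows together had between 0.299% and 0.533% of the KRT8 count of the same library, and the 67 KRT18 pseudogene rows between 0.0744% and 0.151% of the KRT18 count. For KRT17 the share of stretches was 18.26%, and for KRT19, KRT15, KRT5, KRT4, KRT10 and KRT80 it was at most 4.52%.

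Measured per length, as CPM per kilobase of the canonical transcript (RPKM), 4 genes made up most keratin mRNA. In vector the order was KRT8 at 3547 ± 139, KRT18 at 1835 ± 52.7, KRT7 at 624 ± 16.4 and KRT81 at 308 ± 25.1 RPKM (SD, n = 3 each), each apart from the next by more than these spreads. In shMETTL3 KRT8 stood at 1668 ± 52.6, KRT7 at 764 ± 20.4, KRT18 at 722 ± 73.3 and KRT81 at 439 ± 15.1 RPKM, where the means of KRT7 and KRT18 lay within their spread. Within each shMETTL3 library KRT7 was above KRT18, at 754 and 641, 787 and 784, and 749 and 740 RPKM. KRT8 made up 54.2% ± 0.588 of the summed keratin RPKM in vector and 45.2% ± 0.516 in shMETTL3. The share of KRT7 was 9.54% ± 0.0772 in vector and 20.7% ± 0.592 in shMETTL3, and that of KRT81 was 4.71% ± 0.252 and 11.9% ± 0.334. KRT18 held 28.05% ± 0.507 in vector and 19.5% ± 1.21 in shMETTL3.

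**Figure D2:**
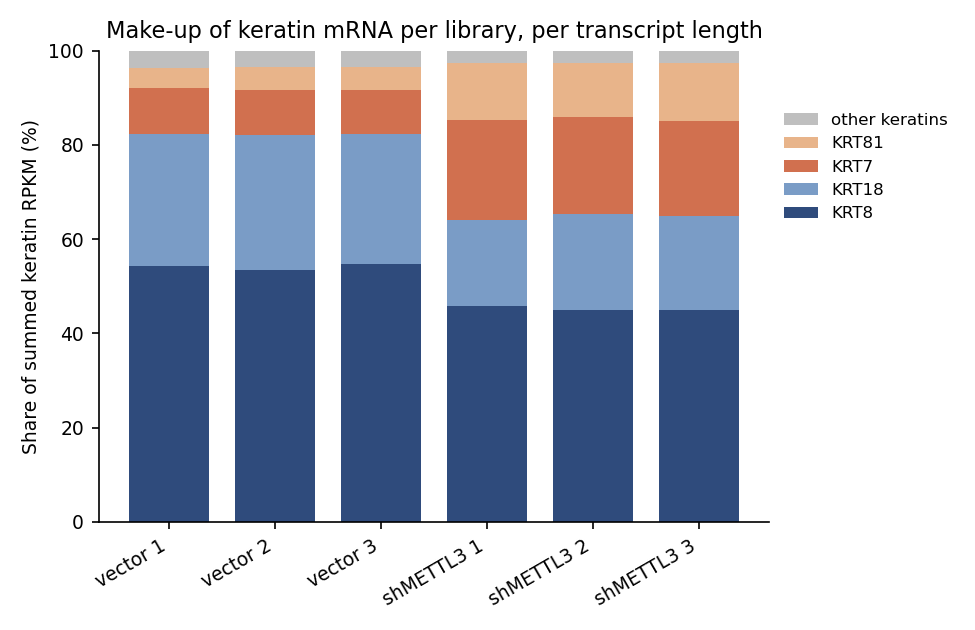
Share of each keratin in the summed keratin RPKM of a library, in percent, for the 3 vector and 3 shMETTL3 libraries, with the 4 most abundant keratins in colour and the other 51 in grey. KRT7 takes near 9.5% in each vector library and 20.2% to 21.4% in the shMETTL3 libraries, and KRT8 takes 53.6% to 54.7% and 44.9% to 45.8%.

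The summed levels of type I and of type II keratins both lay lower in shMETTL3, type I the further. The summed level was 1948 ± 54.2 RPKM for type I and 4595 ± 177 RPKM for type II in vector, and 757 ± 73.7 RPKM and 2932 ± 79.8 RPKM in shMETTL3 (SD, n = 3 each). The shMETTL3 level was thus 38.9% of the vector level for type I and 63.8% for type II. The ratio of type II to type I was 2.36, 2.30 and 2.42 in vector replicates 1 to 3 and 4.23, 3.68 and 3.76 in shMETTL3 replicates 1 to 3, with no overlap. KRT18 made up 94.2% of the type I level in vector and 95.3% in shMETTL3, whereas the type II level was 77.2% KRT8 in vector and 56.9% in shMETTL3. As a share of all counts of a library, keratins were between 1.01% and 1.05% in vector and between 0.654% and 0.692% in shMETTL3. These levels between genes rest on the length used. With the length of all annotated exons together, the ratio of type II to type I was 1.72 ± 0.0390 in vector and 3.43 ± 0.248 in shMETTL3. KRT81 then held 12.4% of the summed level in vector and 27.5% in shMETTL3, a larger share than KRT7 in both groups. KRT8 held 36.9% and 27.1%, so that KRT81 lay above KRT8 in shMETTL3 replicates 1 and 3, and above KRT18, at 20.8% on average, in each shMETTL3 library. The shares and the order of these 4 keratins thus depend on the length chosen.

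Position in the genome separated the rises from the falls. Type II genes lie in a cluster on chromosome 12 of GRCh37, from 52562780 to 53346690, which ends with KRT18, the type I gene that is not in the type I cluster of chromosome 17. The 4 keratins that rose are the first 4 genes of the cluster by start position, KRT80, KRT7, KRT86 and KRT81, within 116.9 kb of its start. KRT83, not called, comes next at 145.3 kb. From KRT6A, at 318.2 kb, to KRT18, at 779.9 kb, each tested gene was lower, namely KRT6A, KRT5, KRT4, KRT8 and KRT18. The clusters were compared as they stand, with no test of position.

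KRT7 lies at 52626304 to 52645970 on the plus strand, KRT86 at 52643084 to 52702947 on the plus strand, and KRT81, inside the span of KRT86, at 52679697 to 52685318 on the minus strand. KRT87P, a pseudogene in the same segment that the rule for keratins leaves out and that was chosen after its values were seen, had 40, 41 and 50 counts in vector and 345, 360 and 226 in shMETTL3 (log2 fold change 2.70, SE 0.142, adjusted p = 1.9e-15, edgeR). KRT81, KRT83 and KRT86 share stretches of 50 bases with it, so how reads were divided among these 4 genes is uncertain. KRT7-AS, whose exons overlap KRT7 on the opposite strand over 282 bases, rose by 0.17 on the log2 scale (adjusted p = 0.0251, edgeR), and its count was between 2.83% and 3.27% of that of KRT7. The only other tested gene inside this cluster that is not among the keratins, LINC00592, was not called.

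On chromosome 17 the type I cluster runs from 38810917 to 39781094. KRT10 lies at 163.5 kb from its start, and the other tested genes, KRT13, KRT15, KRT19 and KRT17, all lower, lie between 846.3 and 964.8 kb. Genes that flank the clusters changed in both directions, where 33.7% of all tested genes were called higher and 32.9% lower. Within 1000 kb beyond the KRT18 end, 21 tested genes included 8 higher and 10 lower with a median log2 fold change of -0.09, and within 1000 kb beyond the KRT17 end, 29 included 13 higher and 7 lower with a median of 0.11. Before the KRT80 end, 10 tested genes included 2 higher and 2 lower with a median of 0.15, and before the first gene of the chromosome 17 cluster, 24 included 9 higher and 9 lower with a median of -0.0038.

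**Figure D3:**
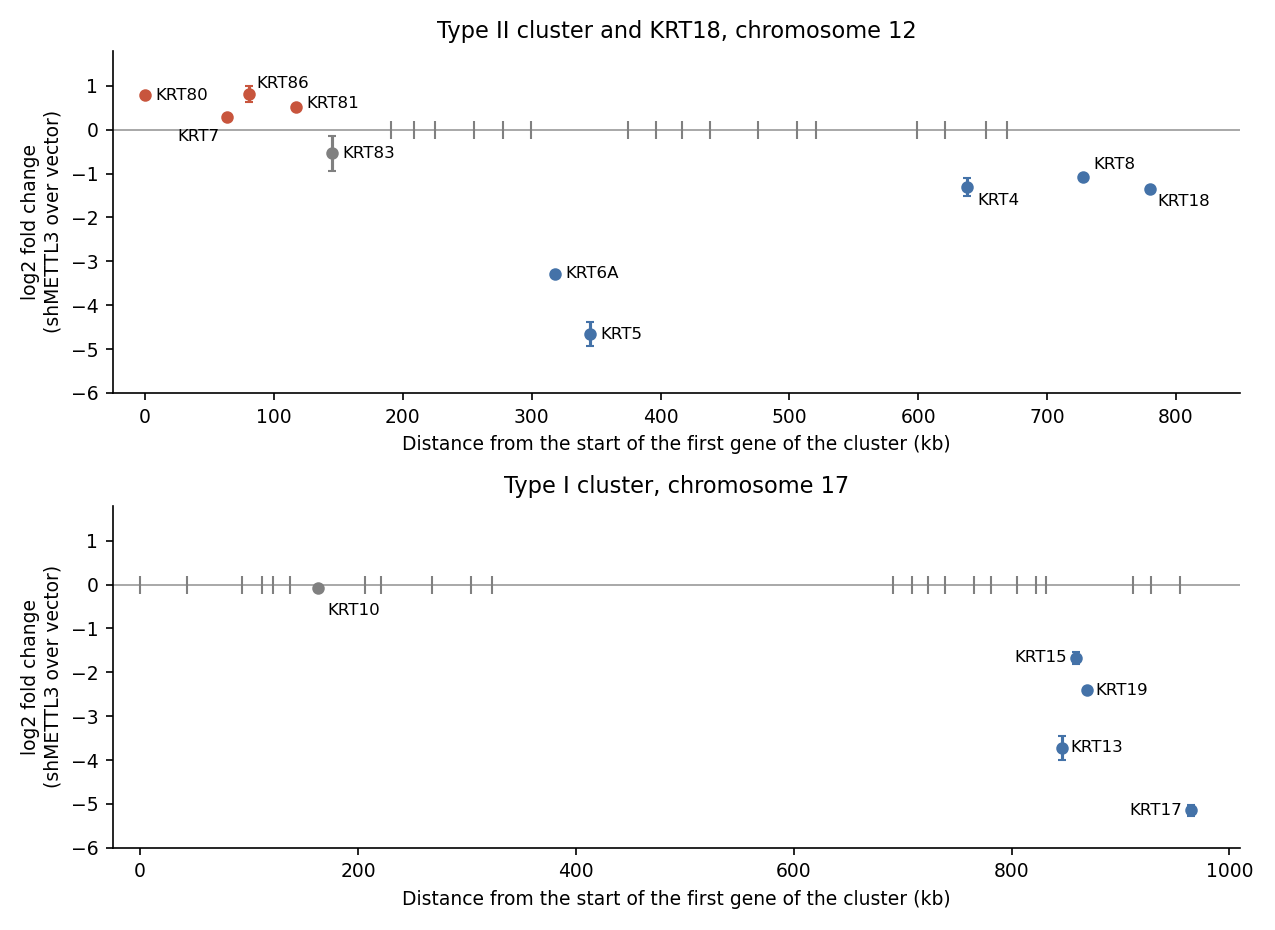
Log2 fold change of the tested keratins (points, with the standard error as bars) against the distance in kilobases from the start of the first gene of the cluster, for chromosome 12 and chromosome 17, with ticks at 0 for keratins that were not tested. Red points were called higher, blue points lower and grey points not called. The 4 higher keratins stand together at the start of the chromosome 12 cluster, and the lower ones lie from 318.2 kb on and at the end of the chromosome 17 cluster.

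Promoter sequence was available for 34 of the 55 keratins in the RefSeq table of GRCh38.p14. Between bases 40 and 11 before the annotated start, where a TATA box usually lies, the letters ATAA were found on either strand in 30 of the 34, or 88.2%, against 16.9% of 27305 symbols. TATAAA, which contains ATAA, was found in 16 of the 34, or 47.1%, against 3.75%. Most of these 34 keratins had no counts or too few for the test. These windows are shown for the 4 tested keratins in that table, KRT4, KRT5 and KRT8, which were called lower, and KRT10, which was not called, since genes with and without ATAA are among them. All are on the minus strand, printed from 5′ to 3′, with ATAA in capitals.
KRT4, chr12:52814127-52814156: gctccaggacatATAAgagacgaaggctga
KRT5, chr12:52520405-52520434: ttctggaagggATAAaaagggggcatcacc
KRT10, chr17:40822625-40822654: ccctctcagtatATAAaggcttgtcactgt
KRT8, chr12:52926480-52926509: ggggcaggctttgtggggaggtgcctgatg
KRT10 holds the full TATAAA, KRT4 and KRT5 hold ATAA only, and KRT8 has neither in this window. Only 1 annotated start was used for each gene, and other starts, such as any of KRT8, were not examined. None of the keratins called higher has a promoter in that table, and whether the motif goes with the changes was not tested. Also described here is GGACT, a sequence in which METTL3 is known to methylate the adenosine. It occurs on the transcript strand in the canonical transcript of 44 of the 55 keratins, or 80.0%, against 90.1% of 9686 protein-coding transcripts of 1303 to 3873 bases, the range of the keratins. KRT80 has 7 such sites, KRT81 and KRT86 have 3 each, KRT6A, KRT13, KRT15, KRT18, KRT4 and KRT83 have 2 each, KRT5, KRT7, KRT8, KRT17 and KRT19 have 1 each and KRT10 has 0. m6A itself was not measured in these libraries.

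Genes that anchor keratin filaments to desmosomes were mostly lower as well. Of 20 desmosome and cytolinker genes 15 were tested, with 12 lower, 2 higher and 1 not called, and a median log2 fold change of -0.72 against 0.0022 over all tested genes, of which 32.9% were called lower and 33.7% higher. With library size alone 10 were lower and 3 higher. DSP, desmoplakin, which ties keratin filaments to the desmosome, went from 314 ± 8.25 CPM to 134 ± 5.13 CPM (SD, n = 3 each, log2 fold change -1.23, adjusted p = 1.04e-17, edgeR). JUP, plakoglobin, fell by 1.12 on the log2 scale (adjusted p = 2.69e-15), PKP3, plakophilin 3, by 1.16 (adjusted p = 9.76e-15) and PPL, periplakin, by 1.95 (adjusted p = 3.99e-17). DSC3, a desmosomal cadherin of stratified epithelium, was higher at a low level, from 1.43 ± 0.622 CPM to 4.14 ± 0.688 CPM (log2 fold change 1.54, adjusted p = 2.2e-06).

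Other intermediate filament genes changed in both directions. Of 16, 12 were tested, with 6 higher, 5 lower and 1 not called, and a median log2 fold change of 0.39, where 33.7% of all tested genes were called higher and 32.9% lower. VIM, vimentin, the filament protein of mesenchymal cells that many cultured carcinoma cells also make, had 955, 987 and 984 counts in vector and 5248, 5720 and 4623 in shMETTL3. It was 4.91-fold higher, with a log2 fold change of 2.30 (SE 0.0574, adjusted p = 1.44e-22). SYNM, synemin, a partner of vimentin and desmin, rose by 1.93 on the log2 scale (adjusted p = 5.73e-18). NEFL, the light neurofilament protein, was lower, from 76.0 ± 1.96 CPM to 23.1 ± 1.77 CPM (log2 fold change -1.72, adjusted p = 1.75e-18). GFAP and NES, filament genes of glial and neural progenitor cells, were called higher at 18, 14 and 13 and at 26, 18 and 26 counts in shMETTL3, against 3, 5 and 0 and 8, 4 and 2 counts in vector. Both passed the filter on low counts only through the shMETTL3 libraries.

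Of 18 transcription factors of epithelial cells, 15 were tested, with 7 lower, 3 higher and 5 not called, and a median log2 fold change of -0.47. The share called was near the 66.6% of all tested genes, and with library size alone 6 were higher and 7 lower. OVOL2, which holds cells in an epithelial state, fell by 2.42 on the log2 scale (adjusted p = 2.01e-10), and FOXA1, a pioneer factor of lung and other endoderm, by 1.15 (adjusted p = 6.67e-15). TP63, the factor of basal cells, was higher while KRT5 was lower in the same libraries. It had 39, 50 and 37 counts in vector and 293, 269 and 269 in shMETTL3 (log2 fold change 2.61, SE 0.145, adjusted p = 6.13e-15). GATA3 rose from 0.823 ± 0.0231 CPM to 2.73 ± 0.641 CPM (log2 fold change 1.72, adjusted p = 3.48e-06).

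Genes of the cornified envelope, the outer shell of differentiated keratinocytes, mostly had too few counts for the test. Of 22, 6 had no count in any library and 6 were tested, with 2 lower, 2 higher and 2 not called, and a median log2 fold change of -0.20. The share called was near the 66.6% of all tested genes. SCEL, sciellin, an envelope precursor also made in lung, fell from 128 ± 10.3 CPM to 29.8 ± 2.51 CPM (log2 fold change -2.11, adjusted p = 3.88e-20), and TGM1, a transglutaminase that cross-links the envelope, fell by 1.51 on the log2 scale (adjusted p = 0.000267). TGM3, another transglutaminase, was higher at a low level (log2 fold change 1.78, adjusted p = 2.27e-05), and SBSN, suprabasin, was called higher with 2, 3 and 2 counts in vector and 37, 43 and 26 in shMETTL3. Both genes called higher passed the filter only through the shMETTL3 libraries, and TGM1 reached it in each vector library but not in shMETTL3 replicate 2.

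**Figure D4:**
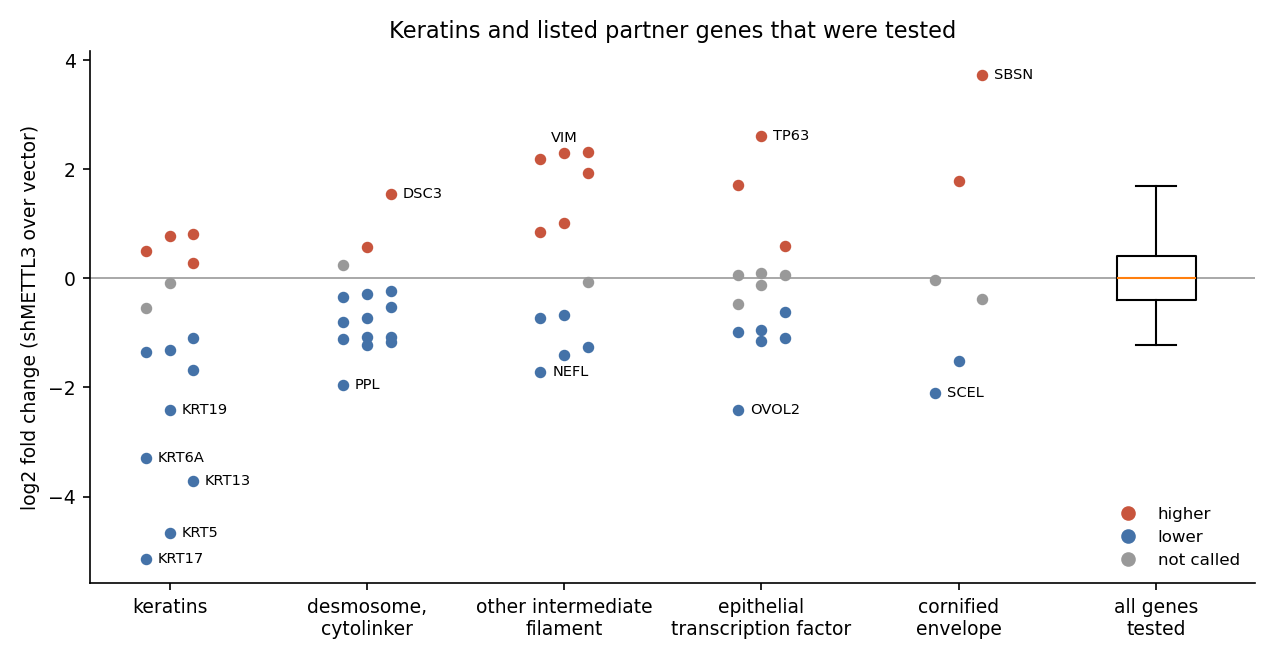
Log2 fold change, shMETTL3 over vector, of the tested keratins and of the tested genes of the 4 lists of partner genes (14 of the 15 tested transcription factors), coloured by call, beside a box for all 15125 tested genes with the median, the quartiles and whiskers at the 5th and 95th percentiles. KRT17, KRT5, KRT13 and KRT6A lie below -3, VIM and TP63 lie above 2, and the value of SBSN comes from at most 3 counts in each vector library.

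Markers of other cell types were also measured, and their part in the keratin changes was not tested. Their counts of calls stand beside 66.6% of all tested genes called, 33.7% higher and 32.9% lower. The summed level of 8 fibroblast markers was 7.19 to 10.2 CPM in vector and 15.7 to 17.1 CPM in shMETTL3, with COL1A2 and DCN at 0 in vector and at most 7 counts in shMETTL3. Of the 3 tested, 2 were called higher, among them THY1 with 4, 0 and 1 counts in vector and 32, 26 and 15 in shMETTL3. For 7 leukocyte markers the sum was 0.947 to 1.68 CPM in vector and 6.38 to 7.94 CPM in shMETTL3, with PTPRC at no more than 1 count in any library, CD3E at 0 and CD14 at 125, 117 and 105 counts in shMETTL3 against 6, 5 and 16 in vector. CD14 was the 1 marker called of the 2 tested and made up most of the sum in shMETTL3, and CSF1R, not called, had 11, 21 and 5 counts in vector and 8, 9 and 12 in shMETTL3. The 5 endothelial markers found in the table summed to at most 0.245 CPM in vector and 1.496 to 2.33 CPM in shMETTL3, with VWF at 0 and CDH5 at 0, 0 and 2 against 30, 28 and 30 counts. Of 8 alveolar type II markers 4 were tested, with 2 lower, 1 higher and 1 not called. SFTPD was lower (log2 fold change -3.24, adjusted p = 2.31e-10) and SFTPB was called higher from 3, 1 and 1 to 13, 24 and 11 counts. The summed level was 84.4 to 103 CPM in vector and 74.3 to 76.7 CPM in shMETTL3, most of it ABCA3, which was lower (log2 fold change -0.26, adjusted p = 0.000803). THY1, CD14, CDH5 and SFTPB passed the filter only through the shMETTL3 libraries, and SFTPD only through the vector libraries. Of the 9 markers of lung epithelium and of A549, 6 were lower, 2 higher and 1 not called, where 32.9% of all tested genes were lower and 33.7% higher, with a summed level of 23012 to 24488 CPM in vector and 17861 to 18321 CPM in shMETTL3.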

How the data were processed

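RNA-seq counts of 3 vector and 3 shMETTL3 libraries were used. The counts deposited by the authors are whole reads per gene symbol, without normalization. The authors used HISAT2 for mapping against hg19 and htseq for counting, and the submitters' processing notes give HISAT2 2.2.1 and HTSeq 0.13.5, whereas the paper names other versions. Annotation and strand setting are not given in the sources used here. Groups and replicate numbers came from the sample titles.

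Counts were tested in R 4.3.3 with edgeR 4.0.16 (TMM, filterByExpr, glmQLFit, glmQLFTest, group only), with Benjamini-Hochberg adjustment over 15125 genes, and called at an adjusted p under 0.05. The filter needs about 0.559 CPM in 3 libraries. Gene positions and canonical transcript lengths were from GENCODE for GRCh37, promoters from RefSeq. DESeq2 1.42.0 and limma 3.58.1 were alternatives. The functions were tested on simulated counts. Members and gene lists were chosen with earlier results of these data known. Values were given for every keratin called or with at least 1 CPM, and in each other list for up to 5 called genes with an absolute log2 fold change of at least 1, beside METTL3, VIM, DSP, JUP and TP63. The values of 1 transcription factor named by this rule are not reported here, and it is counted in its list but not plotted. The 3-count floors cover counting error only, whereas SDs and SEs reflect the spread between libraries.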

Additional observations from a re-analysis of the deposited data

How the results depend on the processing

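The 13 keratin calls, 4 higher and 9 lower, were also counted with RLE and upper-quartile scaling, with library size alone, with DESeq2, with limma-voom, at an adjusted p under 0.01 and in each fit without a library. Without a filter 17 of 35 keratins were called, with KRT34, KRT20 and KRT222 higher and KRT12 lower in addition. With at least 10 counts in every library, 11 of 12 were called and KRT5, KRT13 and KRT83 dropped out. Of 222 values of the 15 tested keratins under these alternatives, 221 kept direction and call, and KRT10 turned to 0.093 with library size alone. The same filter left 1 cornified envelope gene called instead of 4, because 3 genes were tested. Across fits without a library, METTL3 ran from -1.38 to -1.34 and the KRT8 to KRT18 log2 difference from 0.20 to 0.30. With all annotated exons as length, the ratio of type II to type I was 1.997 times the vector value in shMETTL3 instead of 1.65 times, an alternative chosen after seeing the data.

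Deviations of same-numbered libraries from their group means correlated at -0.0066 to 0.052, and those of differently numbered libraries at -0.061 to 0.026. No clear shared effect of the replicate number was seen, which does not show whether the libraries were prepared in pairs. With a replicate block 13 keratins were called, 4 higher and 9 lower, and METTL3 kept its call. Low counts limit KRT83, whose log2 fold change ran from -0.92 to -0.05 without single libraries, and the sizes of GFAP, THY1, CD14, SFTPB and CDH5, which moved by over 1.5-fold without a vector library but kept their calls. CDH5 ran from 4.56 to 7.85.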
